A study of Mus musculus with 15 samples.

Results

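The genes described here are 10 genes that make and load peptides for MHC class I in mouse bone marrow derived macrophages. They were taken by name: the catalytic immunosubunits Psmb8, Psmb9 and Psmb10, the PA28 activator subunits Psme1 and Psme2, the peptide transporter chains Tap1 and Tap2, the loading proteins Tapbp and Tapbpl, and the peptidase Erap1. All 10 were found among the 25700 genes of the count table, and all 10 were among the 11883 genes with enough counts to be tested. Marrow of mice aged 8 to 10 weeks was cultured with M-CSF (10 ng/ml, 7 days), a growth factor that all 5 groups received. Each group has 3 libraries. Controls had no further treatment, 2 groups were given heme-albumin (200 or 400 µM), 1 was given IL-4 (10 ng/ml) and 1 IFN-γ (10 ng/ml). Heme-albumin was prepared from hemin and human serum albumin. In the labels of the higher dose, the treatment field says 400, 401 and 402 µM for the 3 replicates, where titles and protocol have 400 µM. The sources used here give neither the strain nor the duration of treatment. The labels name no animals, so the p-values reflect the spread of these libraries only, and that spread may be technical.

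Cells show fragments of their own proteins to CD8 T cells on MHC class I. The proteasome cuts proteins into peptides, and in immune cells 3 of its catalytic subunits can be exchanged for immunosubunits with other cutting preferences. The PA28 ring opens the ends of the proteasome barrel. TAP carries the peptides into the endoplasmic reticulum, where ERAP1 trims them and tapasin, encoded by Tapbp, holds empty class I molecules beside TAP until a well-binding peptide is bound. IFN-γ is the classical inducer of these genes, with IRF1 and NLRC5 among the factors that act on them. IL-4 drives macrophages to the alternatively activated state, and heme-albumin loads them with the heme they meet when they clear red blood cells.

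The genes lie in few places of the genome, given here in GRCm38 coordinates from GENCODE M21. Psmb9 (ENSMUSG00000096727, minus strand, 34181987 to 34187764), Tap1 (ENSMUSG00000037321, plus strand, 34187553 to 34197225), Psmb8 (ENSMUSG00000024338, plus strand, 34197721 to 34201454) and Tap2 (ENSMUSG00000024339, plus strand, 34203527 to 34216321) stand side by side on chromosome 17 within 34.3 kb of the MHC. Tapbp (ENSMUSG00000024308, plus strand, 33915899 to 33929292) is on the same chromosome. Psme1 (ENSMUSG00000022216, plus strand, 55578123 to 55581529) and Psme2 (ENSMUSG00000079197, minus strand, 55587441 to 55591113) are neighbours within 13.0 kb of chromosome 14. Psmb10 (ENSMUSG00000031897, minus strand, 105935735 to 105938444) is on chromosome 8, Tapbpl (ENSMUSG00000038213, minus strand, 125223933 to 125231860) on chromosome 6 and Erap1 (ENSMUSG00000021583, plus strand, 74639568 to 74693201) on chromosome 13.

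The sources used here give no strand setting for the counting, so reads of overlapping genes may have been shared. Exons of Psmb9 and Tap1 overlap by 212 bases on opposite strands, exons of Erap1 and Cast by 834, and those of Psme1 and Emc9 by 14. Tapbp shares 149 exonic bases with Zbtb22 on the same strand. Antisense genes overlap exons of Psmb8, Tap2 and Tapbp. The counts of these 7 genes are uncertain to that extent. Psme2 has a near-identical copy, Psme2b on chromosome 11, and reads of the pair could be split, so its counts are uncertain too.

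Promoter windows of 300 bases, from 250 before to 50 after the start, were available from RefSeq (GRCm38.p6) for 8 of the 10 genes, that is all but Tap2 and Tapbpl. They were searched on both strands for TTCNNNGAA, the gamma-activated site, for GAAANNGAAA, the interferon response element bound by IRF factors, and for GGGCGG, the GC box. These motifs do not contain one another. The 3 interferon-type matches are shown because all of these genes rose with IFN-γ, and the GC box because it lies between the divergent starts of Psmb9 and Tap1. Each stretch is 30 bases of the plus strand, 5′ to 3′, with the match in capitals.
Psmb8, TTCNNNGAA: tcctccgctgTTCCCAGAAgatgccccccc
Psme1, GAAANNGAAA on the opposite strand: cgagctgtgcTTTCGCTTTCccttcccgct
Erap1, GAAANNGAAA on the opposite strand: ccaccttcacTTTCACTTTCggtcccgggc
Psmb9 and Tap1, GGGCGG on the opposite strand: cagactgaggccCCGCCCcatcatcgcgca
The stretches are chr17:34198088-34198117, chr14:55578493-55578522, chr13:74639839-74639868 and chr17:34187368-34187397. Of 32851 such windows in RefSeq, 8.3% held TTCNNNGAA, 3.44% GAAANNGAAA and 35.7% GGGCGG. Among the 8 genes with a window, 1 held the first motif, 2 the second and 6 the third. The windows of Psmb9 and Tap1 overlap, and their GC box is the same site, counted for each gene. The RefSeq starts of Psmb9 and Tap1 are separated by 225 bases, which held 0 matches to either interferon-type motif and 1 GC box. These are letter matches in a window and no more.

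Totals ran from 8427352 to 28587416 counts per library. Levels are given as CPM, counts scaled to a library of 1000000 counts after edgeR's TMM scaling, and changes as log2 fold changes ± SE. A gene is said to rise or fall where the quasi-likelihood test of edgeR passed 0.05 after Benjamini-Hochberg adjustment over all 11883 genes. Libraries were compared with the other replicates of their group by a chi-square of their counts per degree of freedom, which ran from 7.03 to 135. IFN-γ replicate 3 stood apart from its group (135 and 132, against 45.6 between the other replicates), as did heme-albumin 400 µM replicate 2 (61.1 and 48.6, against 10.7) and, by less, heme-albumin 200 µM replicate 2 (35.8 and 22.3, against 8.39). The 7 macrophage markers, among them Adgre1, Cd68 and Csf1r, were detected in every group, but their summed level differed. It was 32721 to 38163 CPM in controls, and no treated library fell in that range. Lyz2 made up most of the sum in each group, with means of 28795 CPM in controls and 11345 CPM with IL-4, while Cd68 had means of 1622 and 2086 CPM in the same groups. The 5 T and NK cell markers summed to at most 0.605 CPM and the 3 erythroid markers to at most 0.107 CPM. Marker genes of each treatment were read first. Hmox1, which breaks heme down, was at 867 ± 219 CPM (SD, n = 3) in controls and 26436 ± 2141 CPM at 200 µM, Arg1 at 1.28 CPM in controls and 3553 CPM with IL-4, and Gbp2 at 18.9 CPM in controls and 3778 CPM with IFN-γ. In bulk RNA, fewer cells of a type and less RNA per cell cannot be told apart.

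**Figure D1:**
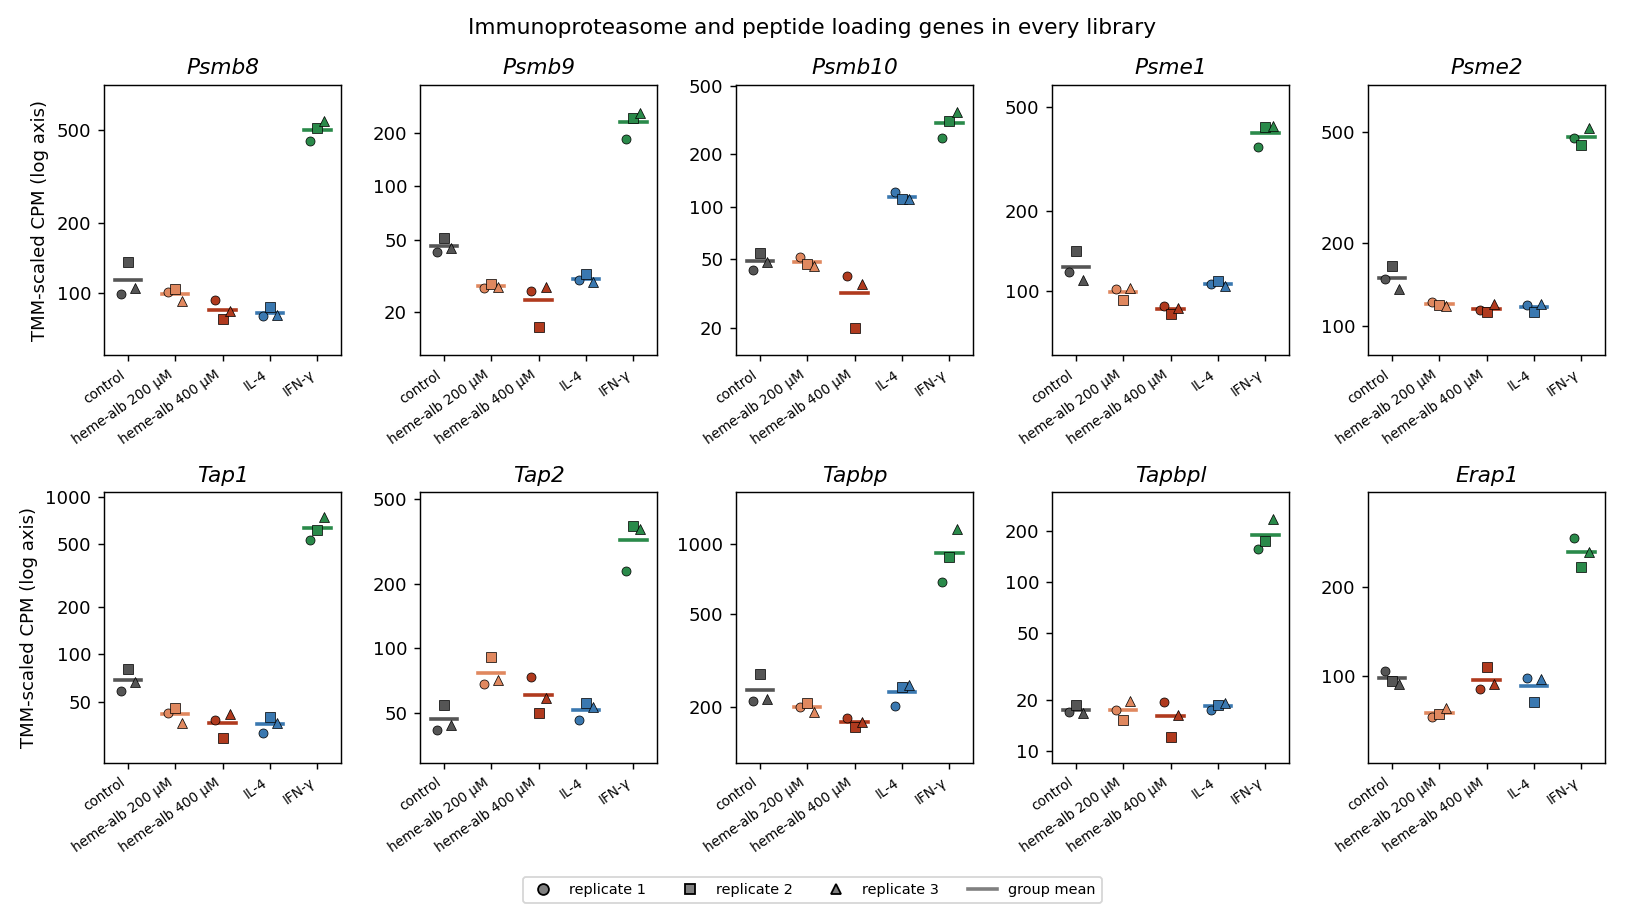
Level of each of the 10 genes in all 15 libraries, as TMM-scaled CPM on a log axis that differs between panels, with symbols for replicates and lines for group means. The 3 IFN-γ libraries are above all other libraries in each panel, and Psmb10 is the gene whose IL-4 libraries stand clear above control.

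With IFN-γ, all 10 genes rose against control, and in all 10 every IFN-γ library was above every control library. Over all tested genes, 24.1% rose and 27.3% had every IFN-γ library above control. The members' median log2 fold change was 2.22, beside 0.05 for all genes tested. The largest changes were those of the loading editor Tapbpl (10.8-fold) and the transporter chain Tap1 (9.21-fold), and the smallest was that of the peptidase Erap1 (2.67-fold). The 10 calls held in each of the 16 alternative analyses, and without IFN-γ replicate 3 the changes ran from 1.42 (Erap1) to 3.24 (Tapbpl). The 6 dendritic cell markers summed to 27.0 to 59.9 CPM in IFN-γ libraries, with none at 0, and to 0.484 to 1.29 CPM in controls, with Siglech at 0. Clec9a (mean 39.0 CPM) and Xcr1 (6.96 CPM) made up most of that sum with IFN-γ, while Flt3 (0.0977 CPM), Zbtb46 (0.363 CPM) and Siglech (0.0391 CPM) were near 0. The 5 stromal and endothelial markers summed to 6.89 to 15.7 CPM with IFN-γ and 1.40 to 2.30 CPM in controls. None was at 0 in either group. Pecam1 made up most of that sum with IFN-γ (mean 9.85 CPM, and 0.430 CPM in controls). Cdh5 went the other way, with means of 0.334 CPM with IFN-γ and 1.04 CPM in controls. Col1a1, Col1a2 and Pdgfra had means of 0.118, 0.344 and 0.0148 CPM with IFN-γ. The macrophage markers summed to 12786 to 26103 CPM with IFN-γ, below all controls. Of these 7 markers, 2 rose and 2 fell. The part of these markers in the result was not tested.

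With IL-4, 1 gene rose, the immunosubunit Psmb10, and 4 fell: Psmb8, Psmb9, Psme2 and Tap1. Over all tested genes, 26.8% were called, 14.9% as higher, and 1424 genes fell. In 5 members every IL-4 library was below every control library, as in 26.7% of tested genes. The members' median was -0.15, beside 0.00 over all genes tested. Macrophage markers summed to 14246 to 20322 CPM with IL-4, below all controls. Of these 7 markers, 0 rose and 2 fell. Dendritic cell markers summed to 2.7 to 5.49 CPM with IL-4, with Xcr1 and Siglech at 0, against 0.484 to 1.29 CPM in controls. Cd209a (mean 2.68 CPM with IL-4, and 0.462 CPM in controls) and Zbtb46 (1.77 and 0.401 CPM) made up most of it. Flt3 (0.0408 and 0.0628 CPM), Clec9a (0.0177 and 0.0358 CPM) and Xcr1 (0 and 0.0560 CPM) were near 0 in both groups, with lower means with IL-4. Stromal and endothelial markers summed to 3.87 to 9.25 CPM, with Pdgfra at 0, against 1.40 to 2.30 CPM. Pecam1 made up most of that sum with IL-4 (mean 4.97 CPM, and 0.430 CPM in controls). Cdh5 went the other way, with means of 0.397 CPM with IL-4 and 1.04 CPM in controls. Col1a1 and Col1a2 had means of 0.302 and 0.570 CPM with IL-4. The part of these markers in the members' changes was not tested.

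With heme-albumin at 400 µM, 0 members rose and 6 fell: the 3 immunosubunits, both PA28 subunits and Tap1. Over all tested genes, 14.7% rose and 10.8% fell. In 7 members, these 6 and Tapbp, every treated library was below every control library, as in 22.4% of tested genes. The members' median was -0.44, beside 0.01 over all genes tested. At an unadjusted p under 0.05, 0 members rose and 7 fell, where 37.6% of all tested genes passed in either direction. DESeq2 gave the same member numbers at its adjusted threshold, where it called 3371 genes in either direction. Without 400 µM replicate 2, 4 of the 6 falls were called, those of Psmb9 (-0.79, adjusted p = 0.00154), Psme1 (-0.50, 0.0104), Psme2 (-0.35, 0.0213) and Tap1 (-0.78, 0.00825). The calls of Psmb8 and Psmb10 were lost there, and also without control replicate 2 or 400 µM replicate 3. The 5 neutrophil and granulocyte precursor markers summed to 16.4 to 54.7 CPM at this dose and 3.51 to 19.3 CPM in controls, with none at 0. The sums were 9.76 to 33.7 CPM at 200 µM, 1.70 to 32.5 CPM with IL-4 and 2.22 to 42.5 CPM with IFN-γ. S100a8 was the largest part at 400 µM (16.6, 51.9 and 13.6 CPM), with a mean of 3.21 CPM in controls. At 400 µM and in controls, S100a9 had means of 5.42 and 5.61 CPM and Mpo of 2.30 and 0.149 CPM. Of the 3 markers tested, 0 were called at 400 µM. The macrophage markers summed to 41609 to 51749 CPM, above all controls. Lyz2, the largest part of that sum, had means of 28795 CPM in controls and 41399 CPM at 400 µM. Of the 7 macrophage markers, 0 rose and 2 fell, with a median log2 fold change of -0.31. The part of these markers in the result was not tested.

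With heme-albumin at 200 µM, 1 member rose, Tap2, and 5 fell: Psmb9, Psme1, Psme2, Tap1 and Erap1. Over all tested genes, 14.0% rose and 9.48% fell. In 6 members, the 5 that fell and Tapbp, every treated library was below every control library, as in 24.5% of tested genes. The members' median was -0.28, beside 0.02 over all genes tested. Without 200 µM replicate 2, 0 members rose and 2 fell, Psmb9 and Tap1. Macrophage markers summed to 46401 to 55173 CPM at this dose, above all controls. Lyz2, the largest part of that sum, had means of 28795 CPM in controls and 46053 CPM at 200 µM. Of the 7 macrophage markers, 0 rose and 1 fell, with a median log2 fold change of -0.27. The part of these markers in the result was not tested. The 4 comparisons share their control libraries, so their values for a gene are not independent of one another. Scaling by library totals alone moved the median of all genes by more than 0.1 in each of the 4, to -0.13 with IFN-γ, -0.11 with IL-4, -0.19 at 400 µM and -0.18 at 200 µM, while the members' median less that of all genes was 2.16, -0.15, -0.44 and -0.30, beside 2.17, -0.15, -0.45 and -0.30 with TMM. The share of rises among called genes was 55.2%, 55.4%, 57.7% and 59.5% with TMM and 36.0%, 38.7%, 30.9% and 27.8% with library totals. With upper-quartile factors it was 42.4% for IFN-γ.

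**Figure D2:**
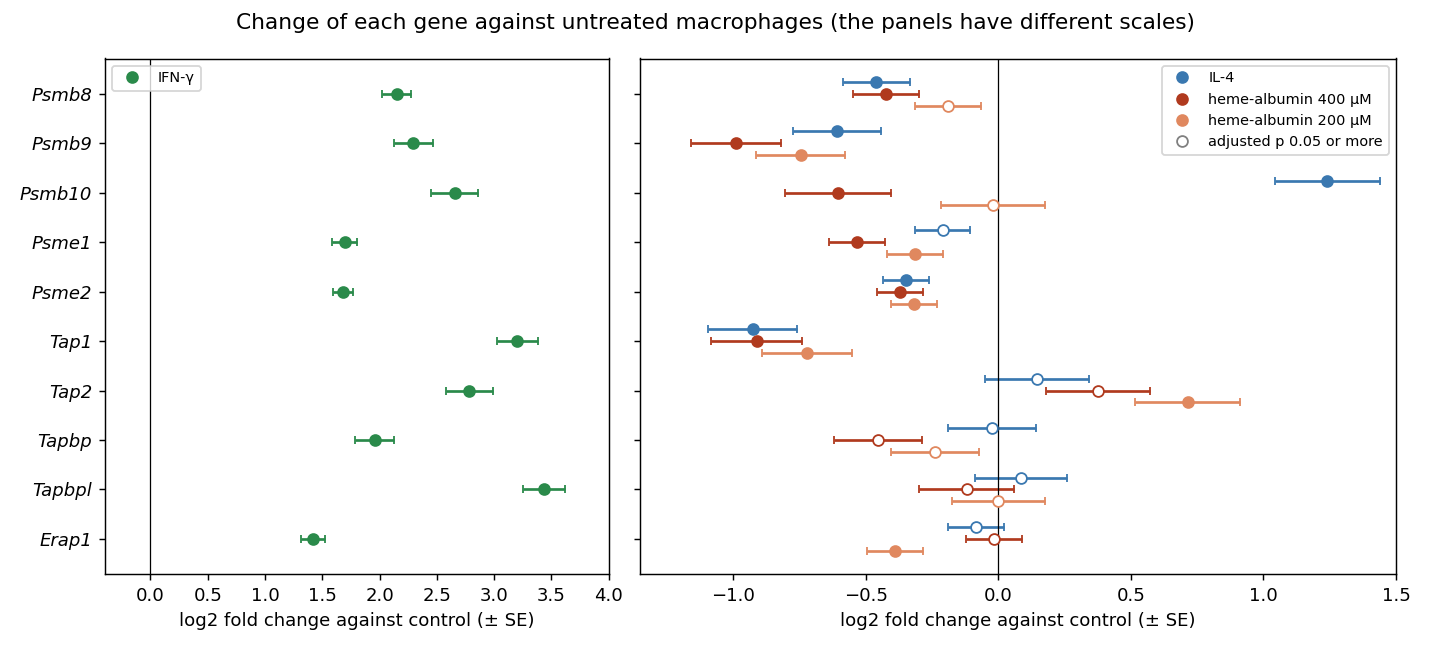
Log2 fold change of each gene against untreated macrophages with its standard error, IFN-γ on the left and the other treatments on the right, filled where the adjusted p is under 0.05. All 10 IFN-γ points are between 1.42 and 3.44, and on the right Psmb10 with IL-4 (1.24) is the point farthest above 0.

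Psmb8 encodes the immunosubunit that replaces the chymotrypsin-like subunit. It was at 98.7, 136 and 105 CPM in controls 1, 2 and 3 and at 448, 510 and 549 CPM with IFN-γ. The groups were far apart, and the difference was 2.15 ± 0.13 (adjusted p = 3.68e-08). IL-4 libraries held 79.7, 87.2 and 80.2 CPM, all below the lowest control, and the fall was called (-0.46 ± 0.13, adjusted p = 0.0149). That call was lost without control replicate 2 (adjusted p = 0.0625) or IL-4 replicate 1 (adjusted p = 0.0570). At 400 µM the levels were 93.1, 77.1 and 83.3 CPM, again all below control (-0.42 ± 0.13, adjusted p = 0.0249). The call was lost in 6 of 16 alternatives, among them those without control replicate 2 (0.110), 400 µM replicate 2 (0.0903) or 400 µM replicate 3 (0.0687). At 200 µM the levels of 101, 104 and 92.3 CPM overlapped the controls (-0.19 ± 0.13, adjusted p = 0.296).

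Psmb9 encodes the immunosubunit that replaces the caspase-like subunit. Controls 1, 2 and 3 were at 42.8, 51.3 and 45.3 CPM and IFN-γ libraries at 184, 242 and 258 CPM, a rise of 2.29 ± 0.17 (adjusted p = 2.81e-07). Psmb9 fell in each of the other treatments, with no library reaching the lowest control. Its levels were 26.2, 16.3 and 27.4 CPM at 400 µM (-0.99 ± 0.17, adjusted p = 9.17e-04, 49.6% lower). They were 27.3, 28.5 and 27.5 CPM at 200 µM (-0.74 ± 0.17, adjusted p = 0.00605, 40.3% lower). The calls at both doses held in all alternatives, and against the control of the same date the log2 differences at 400 µM were -0.70, -1.62 and -0.71, so the library that stood apart gave the lowest value. With IL-4 the levels were 30.0, 32.3 and 29.3 CPM (-0.61 ± 0.17, adjusted p = 0.0150). Without IL-4 replicate 1 or control replicate 2 this comparison missed the threshold narrowly (adjusted p = 0.0506 and 0.0507).

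Psmb10 encodes the immunosubunit that replaces the trypsin-like subunit. Over the 15 libraries its Pearson correlation with the mean of the other members was 0.851, the lowest of the 10, where the others ran from 0.923 (Tap2) to 0.992 (Psme1). These correlations span the treatments, so they describe the group differences. Psmb10 was at 43.2, 53.7 and 47.8 CPM in controls 1, 2 and 3 and at 121, 111 and 111 CPM with IL-4, a rise of 1.24 ± 0.20 (2.36-fold, adjusted p = 4.27e-04). The IL-4 libraries lay close together and clear of control, and the call held in all 15 alternatives. With IFN-γ the levels were 248, 312 and 353 CPM (2.66 ± 0.21, adjusted p = 4.34e-07). At 400 µM they were 39.6, 19.8 and 35.5 CPM (-0.60 ± 0.20, adjusted p = 0.0412). Replicate 2, which stood apart, was the lowest, and the change was -0.36 without it (adjusted p = 0.101). In 7 of 16 alternatives the call was lost, including those without control replicate 2 (0.118), control replicate 3 (0.0788) or 400 µM replicate 3 (0.0524). At 200 µM the levels of 50.9, 46.6 and 45.3 CPM lay within the control range (-0.02 ± 0.20, adjusted p = 0.955).

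Each immunosubunit takes the place of 1 constitutive subunit when a proteasome is assembled, so the ratio of the transcripts was formed within each library from counts per kb of exon. Psmb8 to Psmb5 was 0.460, 0.642 and 0.481 in controls 1, 2 and 3 and 1.58, 1.80 and 1.56 with IFN-γ. It was 0.239, 0.279 and 0.232 with IL-4, 0.206, 0.258 and 0.192 at 400 µM and 0.189, 0.198 and 0.179 at 200 µM. Whether such a ratio is above or below 1 depends on the exon length used, here that of all annotated exons merged. In plain CPM, Psmb8 had a mean of 113 and Psmb5 of 57.1 in controls. Psmb9 to Psmb6 was 0.148, 0.162 and 0.141 in controls and 0.568, 0.708 and 0.609 with IFN-γ. With IL-4 it was 0.0622, 0.0732 and 0.0658, at 400 µM 0.0757, 0.0566 and 0.0831, and at 200 µM 0.0738, 0.0745 and 0.0776. Psmb10 to Psmb7 was 0.674, 0.926 and 0.796 in controls, 3.64, 5.04 and 6.91 with IFN-γ and 2.07, 1.90 and 1.89 with IL-4. It was 0.521, 0.253 and 0.440 at 400 µM and 0.594, 0.623 and 0.532 at 200 µM.

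In all 12 comparisons of a ratio with control the libraries of the groups did not overlap. The exact two-sided permutation test gave p = 0.1 in each, the smallest that 3 against 3 libraries allow, and 0.1 after adjustment over the 12 tests, so none could pass the threshold. For Psmb8 to Psmb5 the log2 differences from control were 1.66 with IFN-γ, -1.07 with IL-4, -1.27 at 400 µM and -1.47 at 200 µM. For Psmb9 to Psmb6 they were 2.06, -1.17, -1.08 and -0.998 in that order. For Psmb10 to Psmb7 they were 2.67, 1.30, -1.03 and -0.45, so this pair alone had a higher ratio with IL-4 than in controls. The denominators changed as well. Psmb5 rose in each treatment, by 1.29 ± 0.14 at 200 µM (adjusted p = 2.11e-05), 0.88 ± 0.14 at 400 µM (4.10e-04), 0.62 ± 0.13 with IL-4 (0.00371) and 0.51 ± 0.13 with IFN-γ (0.00823). Its level was 57.1 ± 0.717 CPM in controls, and 105 ± 22.2 CPM at 400 µM (SD, n = 3). Psmb6 rose with IL-4 (0.56 ± 0.11, adjusted p = 0.00156), and Psmb7 at 200 µM (0.43 ± 0.10, adjusted p = 0.00745) and 400 µM (0.37 ± 0.10, adjusted p = 0.0166).

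**Figure D3:**
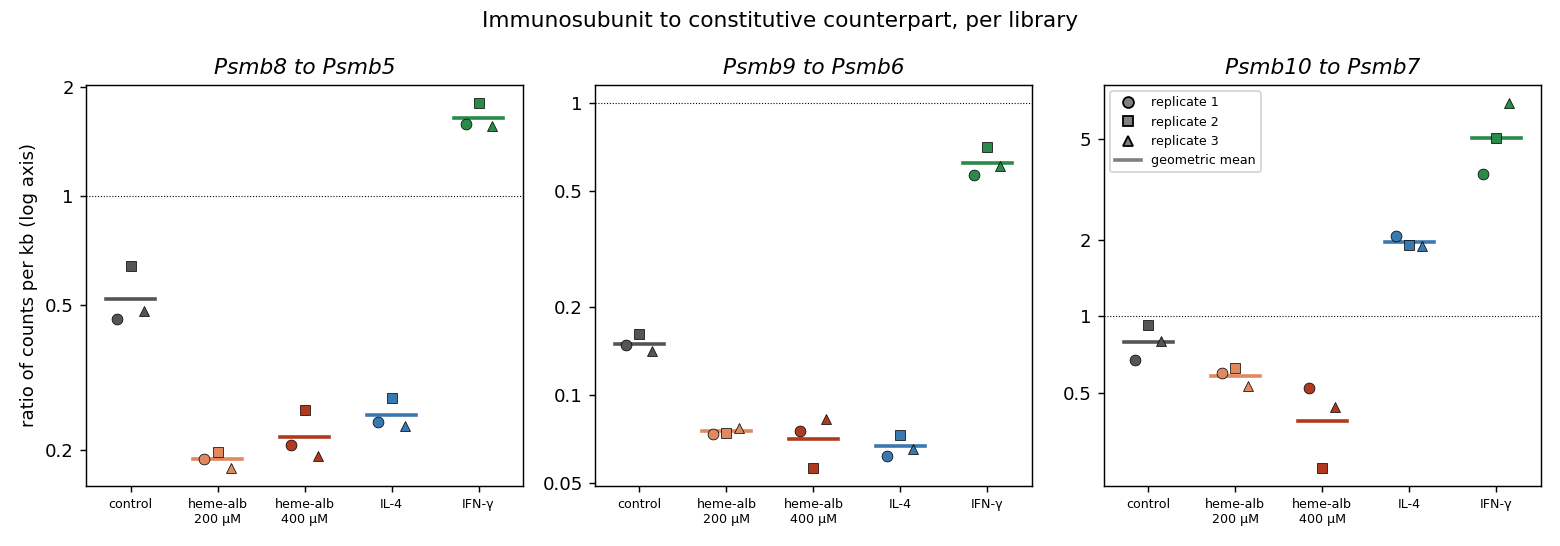
Ratio of each immunosubunit to its constitutive counterpart, from counts per kb of exon in each library, on log axes with the geometric mean of each group; the dotted line marks equal levels. Psmb8 to Psmb5 and Psmb9 to Psmb6 are below control in all IL-4 and heme-albumin libraries and above it with IFN-γ, while Psmb10 to Psmb7 is near 2 with IL-4 (1.89 to 2.07).

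Psme1 and Psme2 encode the alpha and beta subunits of PA28, the activator that caps the proteasome. Psme1 was at 118, 141 and 109 CPM in controls 1, 2 and 3 and 351, 419 and 424 CPM with IFN-γ (1.69 ± 0.11, adjusted p = 5.71e-08). Psme2 was at 147, 165 and 137 CPM in controls and 473, 449 and 516 CPM with IFN-γ (1.68 ± 0.09, adjusted p = 1.06e-08). The changes of the 2 subunits, 3.24-fold and 3.20-fold, differed by less than their errors. The copy Psme2b was at 3.72 CPM in controls and 13.7 CPM with IFN-γ (1.89 ± 0.25, adjusted p = 5.40e-05).

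Both PA28 subunits fell at each dose of heme-albumin. Psme1 held 87.7, 81.2 and 86.0 CPM at 400 µM (-0.53 ± 0.11, adjusted p = 0.00242), a call that held in all 16 alternatives. At 200 µM it held 101, 92.3 and 103 CPM (-0.31 ± 0.10, adjusted p = 0.0444). This call was lost with the replicate number as a block (adjusted p = 0.0518), with no filter on low counts (0.0755) and without control replicate 1 (0.0604), control replicate 2 (0.141) or any of the 200 µM replicates 1, 2 and 3 (0.0829, 0.166 and 0.0719). Psme2 held 115, 112 and 120 CPM at 400 µM (-0.37 ± 0.09, adjusted p = 0.00665) and 122, 120 and 118 CPM at 200 µM (-0.32 ± 0.09, adjusted p = 0.0167). At 200 µM it missed the threshold without control replicate 2 (0.0570), 200 µM replicate 2 (0.0573) or replicate 3 (0.0548), and at 400 µM in a fit of the 6 libraries alone with a replicate block (0.0554). With IL-4, Psme2 fell to 120, 113 and 120 CPM (-0.35 ± 0.09, adjusted p = 0.00843). Psme1 was at 106, 109 and 104 CPM with IL-4, below each control, and was not called (-0.21 ± 0.10, adjusted p = 0.163).

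Tap1 and Tap2 encode the chains of the peptide pump, which works as a pair. Tap1 was at 58.1, 81.2 and 66.8 CPM in controls 1, 2 and 3 and at 533, 620 and 746 CPM with IFN-γ (3.20 ± 0.18, adjusted p = 2.05e-08). Tap2 was at 41.6, 54.5 and 43.7 CPM in controls and at 229, 374 and 362 CPM with IFN-γ (2.79 ± 0.21, adjusted p = 2.86e-07). Both chains thus rose with IFN-γ, by 9.21-fold and 6.89-fold.

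In each of the other treatments Tap1 fell, and in none of them did Tap2 fall. Tap1 fell to 31.5, 40.0 and 36.9 CPM with IL-4 (-0.93 ± 0.17, adjusted p = 0.00112, 47.4% lower). It fell to 38.3, 29.3 and 41.8 CPM at 400 µM (-0.91 ± 0.17, adjusted p = 0.00167, 46.8% lower) and to 42.6, 45.7 and 36.5 CPM at 200 µM (-0.72 ± 0.17, adjusted p = 0.00754). No library of these groups reached the lowest control, and the calls held in all alternatives of the 3 comparisons. At 400 µM the log2 differences from the control of the same date were -0.59, -1.46 and -0.67, with the lowest value again in replicate 2. Tap2 rose at 200 µM to 68.0, 91.1 and 70.7 CPM (0.71 ± 0.20, 1.64-fold, adjusted p = 0.0187). The differences from the control of the same date were alike, 0.70, 0.74 and 0.69. The call was nevertheless lost without control replicate 1 (0.0883), control replicate 3 (0.0736) or 200 µM replicate 2 (0.0956), and with library totals in place of TMM (0.0618). At 400 µM Tap2 was at 73.7, 49.8 and 58.3 CPM (0.38 ± 0.20, adjusted p = 0.182) and with IL-4 at 46.3, 55.5 and 53.0 CPM (0.14 ± 0.20, adjusted p = 0.634), both overlapping control.

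The ratio of Tap1 to Tap2 per kb, a pair chosen after the values were seen and therefore given with no test, was 0.963, 1.03 and 1.05 in controls. It was 1.60, 1.14 and 1.42 with IFN-γ and 0.470, 0.498 and 0.480 with IL-4. At 400 µM it was 0.359, 0.406 and 0.496 and at 200 µM 0.432, 0.347 and 0.357. The ratio was thus below that of every control in all 9 libraries of IL-4 and heme-albumin. Its distance from 1 depends on the exon lengths used. For Psmb9 to Psmb10, chosen in the same way, controls were at 0.461, 0.445 and 0.441 and IFN-γ libraries at 0.346, 0.360 and 0.341. IL-4 libraries were at 0.116, 0.135 and 0.123, lower than the 0.308, 0.384 and 0.360 at 400 µM and the 0.250, 0.285 and 0.283 at 200 µM.

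**Figure D4:**
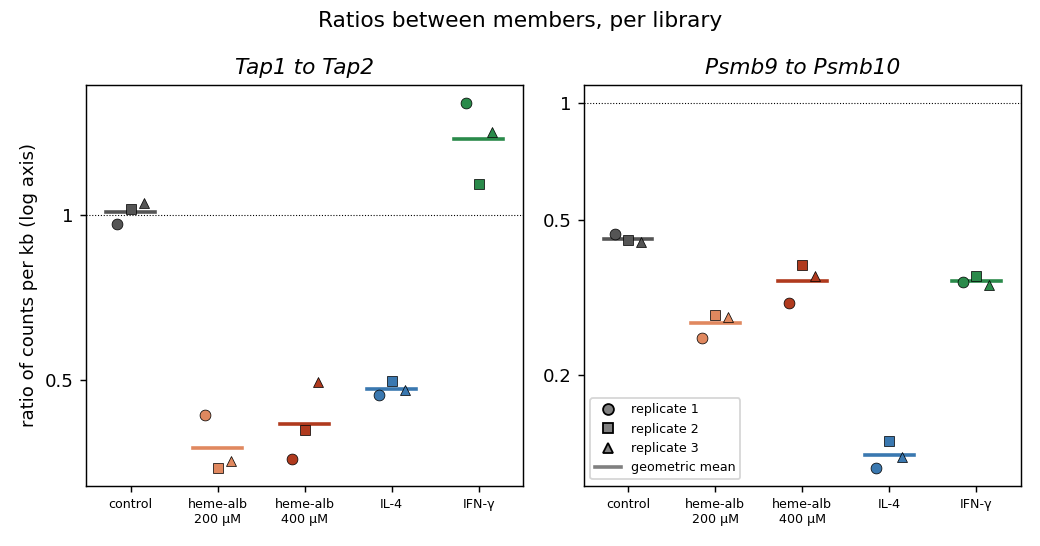
Ratios of Tap1 to Tap2 and of Psmb9 to Psmb10, from counts per kb of exon in each library, on log axes with the geometric mean of each group; the dotted line marks equal levels. Tap1 to Tap2 is close to 1 in controls (0.963 to 1.05) and under 0.5 in the IL-4 and heme-albumin libraries, and Psmb9 to Psmb10 is lowest with IL-4.

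Tapbp encodes tapasin and Tapbpl its relative TAPBPR, which edits the peptides of class I molecules outside the loading complex. Tapbp was at 212, 276 and 216 CPM in controls 1, 2 and 3 and at 685, 881 and 1165 CPM with IFN-γ (1.96 ± 0.17, adjusted p = 1.41e-06). Tapbpl was at 17.0, 18.7 and 16.8 CPM in controls and at 157, 175 and 238 CPM with IFN-γ (3.44 ± 0.18, adjusted p = 1.19e-08). In both genes IFN-γ replicate 3, which stood apart, was the highest library. Per kb of exon, Tapbp was at 64.6 and Tapbpl at 7.44 CPM in controls, and at 251 and 80.7 CPM with IFN-γ. Tapbpl overlapped the control range in the other treatments, with changes of 0.08 ± 0.17 with IL-4, -0.12 ± 0.18 at 400 µM and 0.00 ± 0.18 at 200 µM (adjusted p = 0.763, 0.666 and 1.00). Tapbp at 400 µM, with 178, 164 and 172 CPM, was below every control but missed the threshold (-0.45 ± 0.17, adjusted p = 0.0624). It passed with DESeq2 (adjusted p = 0.0307), with library totals (0.00493), without IFN-γ replicate 3 and 400 µM replicate 2 (0.0472), and in a fit of the 6 libraries alone (0.0259, or 0.0473 with a replicate block). At 200 µM it held 198, 208 and 190 CPM (-0.24 ± 0.17, adjusted p = 0.321) and with IL-4 201, 243 and 248 CPM (-0.02 ± 0.17, adjusted p = 0.940).

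Erap1 encodes the aminopeptidase that trims peptides to the length class I molecules hold. It had the smallest IFN-γ change of the 10, from 104, 95.8 and 94.1 CPM in controls 1, 2 and 3 to 292, 233 and 261 CPM (1.42 ± 0.11, adjusted p = 3.48e-07). Its neighbour on the opposite strand, Cast, was lower with IFN-γ (-0.22 ± 0.08, adjusted p = 0.0485). Erap1 fell at 200 µM, to 72.6, 74.2 and 77.7 CPM (-0.39 ± 0.11, 23.7% lower, adjusted p = 0.0178), with every library below control. The call was lost without control replicate 1 (0.0676), 200 µM replicate 1 (0.0608) or 200 µM replicate 2 (0.0612). At 400 µM the levels of 90.3, 107 and 93.6 CPM overlapped control (-0.02 ± 0.11, adjusted p = 0.931), as did the 98.0, 81.7 and 97.9 CPM with IL-4 (-0.08 ± 0.11, adjusted p = 0.612).

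The doses of heme-albumin were compared directly. None of the 10 genes was called by edgeR between 400 and 200 µM, and neither was any of the 11883 genes (0.00%). At an unadjusted p under 0.05, 1 member was higher at 400 µM, Erap1 (0.37 ± 0.11, adjusted p = 0.292), and 1 lower, Psmb10 (-0.58 ± 0.20, adjusted p = 0.295), against 1796 of all genes (15.1%). DESeq2 called 0 members and 13 genes. In 4 members the libraries of the doses did not overlap. Those at 400 µM were all above those at 200 µM for Erap1, as for 10.0% of tested genes, and all below for Psmb10, Psme1 and Tapbp, as for 12.4%.

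IFN-γ was also compared with the other treatments, which it exceeded for all 10 genes. Against IL-4, where 26.3% of all tested genes were higher, the changes ran from 1.42 ± 0.20 (Psmb10) to 4.13 ± 0.19 (Tap1). Against 400 µM, where 22.3% were higher, they ran from 1.44 (Erap1) to 4.11 (Tap1), and against 200 µM, where 21.7% were higher, from 1.81 (Erap1) to 3.93 (Tap1). IL-4 exceeded 400 µM in 2 members, Psmb10 (1.85 ± 0.20, adjusted p = 1.20e-05) and Psme1 (0.32 ± 0.11, adjusted p = 0.0256), where 19.7% of tested genes were higher. The call of Psme1 held in 9 of 16 alternatives, with adjusted p up to 0.0767, and was lost without 400 µM replicate 2 or 3, without any of the IL-4 replicates 1, 2 and 3, without 400 µM replicate 2 and IFN-γ replicate 3 together, and in the 6 libraries alone with a replicate block. Tapbp missed the threshold in this comparison (0.43 ± 0.17, adjusted p = 0.0546). It was called in 6 of 16 alternatives, among them DESeq2 (0.0395) and the replicate block (0.0482). Psmb9 (0.38 ± 0.17, adjusted p = 0.0870) was called in 2 of 16. IL-4 exceeded 200 µM in Psmb10 (1.26 ± 0.20, adjusted p = 2.63e-04) and Erap1 (0.31 ± 0.11, adjusted p = 0.0414), where 14.5% were higher. The call of Erap1 held in 8 of 15 alternatives, with adjusted p up to 0.145, and was lost without any of the 200 µM replicates 1, 2 and 3, without IL-4 replicate 1 or 3, with upper-quartile factors and with no filter. It was below 200 µM in Tap2 (-0.57 ± 0.20, adjusted p = 0.0402), where 16.8% were lower. That call held in 9 of 15 alternatives, with adjusted p up to 0.168, and was lost without 200 µM replicate 2 or 3, without any of the IL-4 replicates 1, 2 and 3 and with library totals.

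Ordered by mean level, IFN-γ was first for each of the 10 genes and differed from the next group in each. Below it, most steps between neighbours in the order were not called, although in some of them the libraries did not overlap. For Psme1 the libraries of neighbouring groups did not overlap at any step below IFN-γ, and no such step was called. The steps that were called were Psmb10 from IL-4 down to control, Psmb9 from control to IL-4, Psme2 and Tap1 from control to 200 µM, and Erap1 from IL-4 to 200 µM. Control was second for 7 genes, IL-4 for Psmb10 and Tapbpl, and 200 µM for Tap2, although for Tapbpl the 4 lower groups were not separated by any step. Per kb of exon, the control level was highest for Psme2 (84.8 CPM) and Tapbp (64.6 CPM), followed by Psme1 (55.6), Psmb8 (33.5) and Psmb10 (28.3). The remaining genes were at 7.44 (Tapbpl) to 13.5 CPM per kb (Erap1). With IFN-γ, Psme2 (272 CPM per kb) and Tapbp (251) were again the highest, and Erap1 (36.0) was the lowest.

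The wider pathway was described by lists of other genes, each with the number of tested genes that rose and fell against control. Over all 11883 tested genes, 2866 rose and 2323 fell with IFN-γ, and 1766 and 1424 with IL-4. At 400 µM 1744 rose and 1279 fell, and at 200 µM 1658 and 1127. The lists are short, and a count near these shares says little about a list. Of the 11 other 20S core subunits, which form the body of the proteasome, 11 rose and 0 fell at 200 µM (median 0.48), 8 and 0 at 400 µM (median 0.41), 7 and 0 with IFN-γ (median 0.32), and 1 and 1 with IL-4 (median 0.08). Psma5 rose in 3 of the comparisons, by 1.18 at 200 µM, 1.11 ± 0.10 at 400 µM and 0.76 ± 0.10 with IFN-γ (adjusted p = 6.83e-05). Of 8 assembly factors and other regulators, 4 rose and 1 fell with IFN-γ. Pomp, the chaperone that matures the proteasome, rose by 0.71 ± 0.10 with IFN-γ (adjusted p = 1.01e-04), 0.45 ± 0.10 at 200 µM (0.00545) and 0.34 ± 0.10 at 400 µM (0.0243). In that list 1 gene rose and 0 fell with IL-4 and at 200 µM, and 2 rose and 0 fell at 400 µM.

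Beyond the proteasome, 2 of the 6 genes listed as light chain and endoplasmic reticulum chaperones rose with IFN-γ, B2m and Lnpep, and 1 fell. Lnpep, which encodes an aminopeptidase and no chaperone, went from 56.2 to 140 CPM. Calr, Pdia3 and Uggt1 were not called. B2m, the light chain of class I, rose from 2368 to 6547 CPM (1.47 ± 0.22, adjusted p = 1.51e-04), while Canx, the chaperone calnexin, fell (-0.44 ± 0.15, adjusted p = 0.0282). B2m fell at 200 µM (-0.78 ± 0.22, adjusted p = 0.0186) and missed the threshold at 400 µM (-0.54 ± 0.22, 0.0841) and with IL-4 (-0.60 ± 0.22, 0.0561). In this list 0 rose and 1 fell with IL-4 and at 200 µM, and 0 and 0 at 400 µM. Of 6 cytosolic peptidases, 1 rose and 1 fell with IFN-γ and with IL-4, and 1 rose and 0 fell at each heme-albumin dose. Lap3, leucine aminopeptidase, was the one that rose with IFN-γ (1.53 ± 0.16, adjusted p = 5.80e-06).

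Of 9 transcriptional regulators, 7 rose and 0 fell with IFN-γ (median 1.29). Irf1 rose from 50.2 to 1359 CPM (4.76 ± 0.15, adjusted p = 2.67e-10) and Nlrc5, the activator of class I genes, from 36.4 to 281 CPM (2.95 ± 0.13, adjusted p = 2.39e-09). Irf8, a myeloid transcription factor, rose by 2.44 ± 0.14 (adjusted p = 2.14e-08). With IL-4, 0 rose and 4 fell (median -0.25): Stat2 (-1.25 ± 0.13), Irf9 (-1.27 ± 0.13), Nlrc5 (-1.21 ± 0.13) and Irf8 (-0.57 ± 0.13). Irf1 was not called with IL-4 (0.23 ± 0.13). At 400 µM 0 rose and 3 fell (median -0.19): Stat2 (-1.51 ± 0.13), Irf1 (-0.97 ± 0.13) and Irf9 (-0.80 ± 0.13). At 200 µM 1 rose, Irf8 (0.40 ± 0.13, adjusted p = 0.0431), and 3 fell (median -0.12): Stat2 (-1.85 ± 0.13), Irf9 (-1.15 ± 0.13) and Irf1 (-0.81 ± 0.13). Nlrc5 was not called at either dose (0.11 ± 0.12 at 400 µM and -0.12 ± 0.12 at 200 µM, adjusted p = 0.565 and 0.502).

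**Figure D5:**
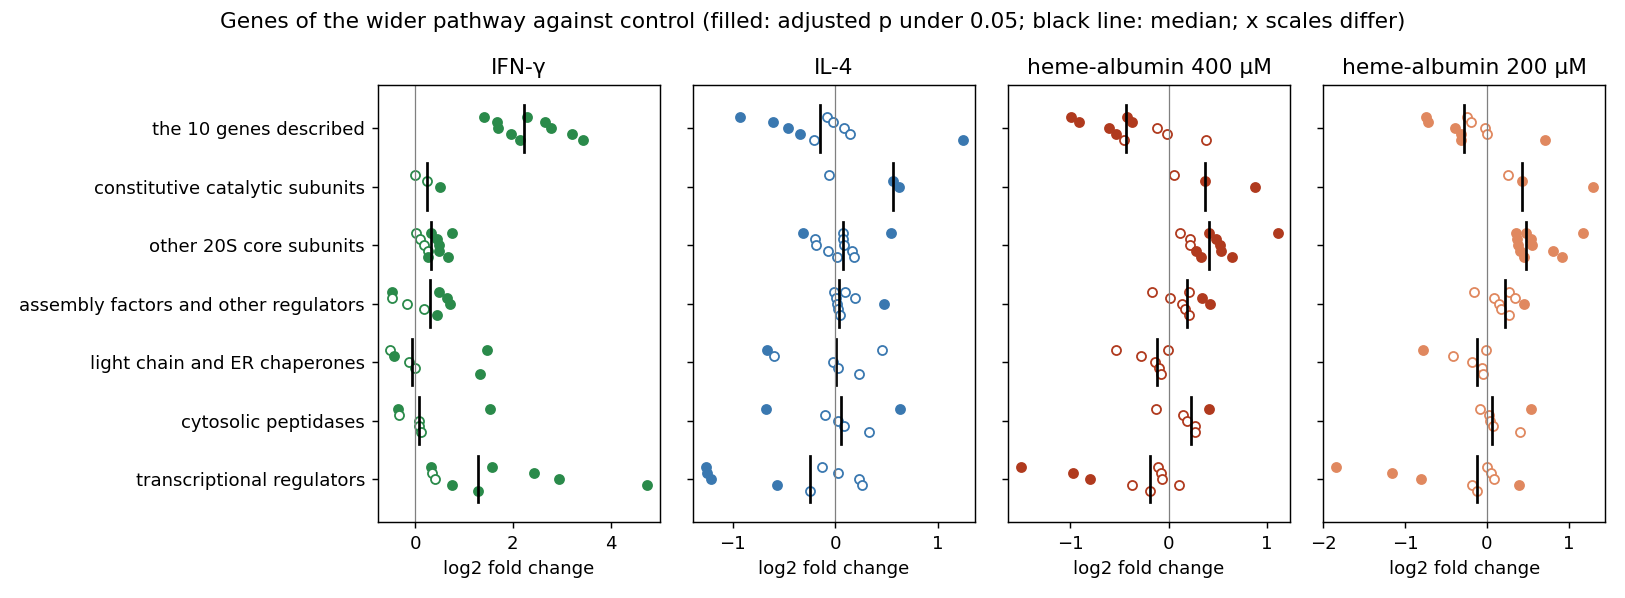
Log2 fold changes against control of the 10 genes and of the other genes of the pathway by list, 1 panel per treatment with its own scale; filled points have an adjusted p under 0.05 and black lines are medians. With heme-albumin the 20S core subunits lie above 0 (median 0.41 at 400 µM and 0.48 at 200 µM) and the 10 genes have negative medians (-0.44 and -0.28).

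Outside these lists, the genes whose level followed the members' mean most closely over the 15 libraries, among 11265 genes, were Calhm6 (Pearson r = 0.993), H2-Q5 (0.990) and Tgtp1 (0.990). H2-Q5 and Tgtp1 have close relatives with which reads may be shared, and Tgtp1 overlaps another gene. These values rest on the contrast between IFN-γ and the other libraries.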

How the data were processed

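The labels' protocols name a stranded TruSeq kit for all 15 libraries. The authors deposited raw counts per gene. Per the submitters' processing notes, the tools were STAR 2.7.0e, SAMtools 1.9 and featureCounts, with the build GRCm38.p5. Annotation and strand setting are not given in the sources used here. Symbols came from GENCODE M21, which held 25664 of the 25700 gene identifiers.

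The test was edgeR's quasi-likelihood test (edgeR 4.0.16, R 4.3.3) with filterByExpr, TMM factors (0.886 to 1.12), 1 mean per group over all 15 libraries and Benjamini-Hochberg adjustment within each of 10 comparisons at a threshold of 0.05. It was checked on data simulated for IFN-γ against control. There it recovered 10 of 50 genes changed 1.5-fold, 36 of 50 at 2-fold and 46 of 50 at 4-fold and at 8-fold. Of the 144 genes called, 6 had not been changed. The real comparison of IFN-γ with control called 5189 genes. With fewer changed genes the adjustment asks for a smaller p, so these recoveries need not hold for the real comparisons. A change under 2-fold that was not called may still have been missed. The members and gene lists were chosen with earlier results of these data known. The text names every member, markers of the treatments, up to 4 called genes of smallest p per list and comparison, and the 3 genes most alike in level. Overlapping genes, copies and list genes named without a call were added after the values were seen. 1 of the list genes is not reported here, and its list is counted without it.

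Column names carry 1 date per replicate number in every group, so a number pairs libraries by date, and what the date stands for is not given. Deviations from group means had a median r of 0.179 over 30 pairs of equal number (-0.193 to 0.503, 21 of them over 0.1) and -0.0915 over 60 other pairs. Taking deviations from group means pushes the other pairs below 0, by arithmetic, where pairs of equal number are above it. The second median is thus no separate observation. For 14 of the 15 libraries, the closest library of another group had the same number. The main test has no term for this pairing. Alternatives replaced the test by DESeq2 1.42.0, the scaling by upper-quartile or DESeq2 factors, and the filter by none or by 5 CPM in 3 libraries. Others fitted just the 6 libraries of a comparison, added a replicate block, or left out each library in turn, or IFN-γ replicate 3 and 400 µM replicate 2 together. Scaling by library totals, and the block within 6 libraries, were chosen after seeing the data.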

Additional observations from a re-analysis of the deposited data

How the results depend on the processing

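The 10 rises with IFN-γ against control were called in all 16 alternatives, as were those against the other treatments. Of 1570 values of single genes under an alternative, 1456 kept their direction and their side of the threshold, 55 lost the call, 20 gained one and 39 changed direction, and none of the 39 had been called. The replicate block ended the call of Psme1 at 200 µM (adjusted p = 0.0518), added that of Tapbp between IL-4 and 400 µM (0.0482) and changed no other call. For the 12 subunit ratios the replicate block leaves the mean difference as it is by arithmetic (1.66 for Psmb8 to Psmb5 with IFN-γ) and bears on p alone, which cannot go below 0.25 with 3 pairs.

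Leaving out 1 library in turn gave 2 to 4 falls with IL-4 against control, 0 to 1 rises and 2 to 5 falls at 200 µM against control, 1 to 2 rises of IL-4 over 400 µM, and 1 to 2 rises and 0 to 1 falls of IL-4 against 200 µM. At 400 µM, 6 falls became 4 without replicate 2, where the calls of Psmb8 and Psmb10 were lost. Both calls were also lost without control replicate 2 or 400 µM replicate 3. With library totals 0 members rose at 200 µM against control, IL-4 exceeded 400 µM in 4 members, and IL-4 was below 200 µM in 0. The counts over all tested genes moved as well. With library totals 992 genes rose at 200 µM against control, beside 1658 with TMM. IL-4 exceeded 400 µM in 2705 genes, beside 2346, and was below 200 µM in 1661, beside 2002. IL-4 exceeded 200 µM in 1 member with upper-quartile factors and in 1 with no filter, and was below it in 2 in a fit of the 6 libraries compared, in 2 also with the replicate block. With that block IL-4 exceeded 400 µM in 1.

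Counts of all genes called moved by over 1.5 times in these cases. IL-4 against control gave 3190 genes, or 5149 with only the 6 libraries and 6552 with the block added. For 200 µM against control there were 2785, or 4456 and 4936 in the same fits, 1787 without control replicate 1 and 1679 without 200 µM replicate 2. For 400 against 200 µM there were 0, or 13 with DESeq2, 244 with the block and 6 libraries, and 1 without IFN-γ replicate 3 and 400 µM replicate 2. IFN-γ against 400 µM gave 5097, or 2741 and 2038 in the 6-library fits, and against 200 µM 4998, or 2904 with the block. The cause of these shifts was not tested. For IFN-γ against 400 µM and 200 µM, the share of rises among calls was 52.0% and 51.6% with TMM and 38.7% and 40.4% with upper-quartile factors, and for IL-4 against 200 µM it was 46.3%, or 56.5% with library totals.

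The values that changed direction were small. Tapbpl at 200 µM against control (0.00) became -0.0298 with DESeq2, -0.0293 with its size factors, -0.0131 with upper-quartile factors, -0.203 with library totals, -4.92e-04 with no filter, -0.0124 with the replicate block, -0.0181 with 6 libraries and -0.0253 with both, and ran from -0.0933 to 0.0905 with 1 library left out. Library totals turned Tapbpl with IL-4 against control to -0.0286, and for IL-4 against 400 µM Psmb8 to 0.0431, Tap1 to 0.0623 and Erap1 to 0.0200, and Psme2 against 200 µM to 0.0632. Tap1 for IL-4 against 400 µM became 0.00520 with no filter. Psme2 in that comparison became -0.0134 with upper-quartile factors and -0.0161 without IFN-γ replicate 3 and 400 µM replicate 2, which also turned Tapbpl at 400 µM to 0.0436 against control and 0.0417 against 200 µM. With 1 library left out, IL-4 against control ran from -0.105 to 0.0896 for Tapbp, and 400 µM against control from -0.0924 to 0.0300 for Erap1 and from -0.285 to 0.0375 for Tapbpl. Psmb10 at 200 µM against control ran from -0.112 to 0.0379, and Tapbpl between the doses from -0.286 to 0.0373. For IL-4 against 400 µM the ranges were -0.123 to 0.0181 for Erap1, -0.0979 to 0.0398 for Psmb8, -0.00691 to 0.0530 for Psme2 and -0.150 to 0.0976 for Tap1. For IL-4 against 200 µM they were -0.0447 to 1.23e-04 for Psme2 and -0.00603 to 0.178 for Tapbpl.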
